A study of Drosophila melanogaster with 36 samples.

Results

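The genes described here are 40 cell cycle and DNA replication genes of Drosophila melanogaster, given as a list of symbols and read out on Affymetrix arrays of larval wing discs from 12 selected lines. A gene was included when the array platform's annotation gave a probe set to that symbol alone. This left 28 of the 40 genes, with 30 probe sets of the 18769 on the array that were not controls. Each of the 28 genes had 1 probe set among the 9385 bright enough to be tested, and fzy had 2 further probe sets that were too dim. By role, 10 of 13 listed licensing and helicase genes were measured, 3 of 4 genes of S phase synthesis, 7 of 9 of G1-S control, 3 of 8 of G2-M control, and 5 of 6 of mitotic exit and checkpoint. The other 12 genes, Mcm7, Orc6, geminin, RnrS, dap, E2f1, CycA, Cdk1, stg, polo, aurA and BubR1, were not analysed here, so most of the mitotic kinases and the string phosphatase are missing from what follows.

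The lines had been selected in opposite directions for wing shape, and each high line is set against the low line of its pair. Lines H (high) and L (low) came from a wild Massachusetts (MA) population through 20 generations of divergent selection and were then made isogenic. Their hybrids founded populations A to D, which mixed for 34 generations, were selected again for 25 and were inbred for 10, giving the high lines A1, B1, C1 and D1 and the low lines A2, B2, C2 and D2. The high and the low California (CA) line came from a separate population, and the labels give no number of generations for them. All larvae were reared at 20 °C, were of the third instar with a median age of 6.2 h before pupariation, and gave 100 discs per tube. There were 3 arrays per line and 36 in all, each with cRNA made from 5 µg of total RNA. The labels do not say whether the CA lines were inbred. The arrays of a line share its origin, and the line rather than the array is therefore the replicate of the direction of selection. The reselected lines descend from H and L, so the MA pairs are not independent of each other.

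Cells replicate their DNA once per cycle because the origin recognition complex (ORC) and Cdt1, encoded by dup, load the MCM helicase onto origins in G1, and the S phase cyclin-dependent kinase then fires the loaded origins and blocks new loading. E2F with its partner Dp drives the transcription of helicase, clamp, polymerase and ribonucleotide reductase genes at the G1 to S transition, and the retinoblastoma protein Rbf and the repressor E2f2 hold those genes down. Mitotic cyclins and kinases then carry the cell into mitosis, and the anaphase promoting complex, switched on by fzy (Cdc20) and later fzr (Cdh1), destroys cyclins and securin to let it out. The larval wing disc grows by such cycles, with slower and more patterned division towards the end of the third instar.

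Values are MAS5 array signals on a linear scale, and differences are on the log2 scale, high line minus low line, from limma. A gene was called when its adjusted p, by the Benjamini-Hochberg method over all 9385 tested probe sets, was below 0.05. Nothing in the labels says that the triplicate arrays of a line are separate cultures, and p-values from them therefore cover the spread between these samples alone, which may be technical. Signals of different probe sets are not comparable with each other, and no order between genes is read from them. A signal from whole discs cannot tell fewer cells of a kind from less RNA per cell. The discs carried wing disc genes on all arrays, with a summed signal of 6 such genes (nub, vg, ap, rn, ct and tsh) between 63486 and 80972 over the MA high lines and between 63853 and 71130.0 over the MA low lines. Hemocyte markers were mostly lower in the high lines over the 5 MA pairs, with 8 of 12 genes called lower and 0 higher. Of all tested probe sets 9.69% were called there. By single pair the hemocyte gene NimC1 was called higher in H (1.29) and A1 (0.63) and lower in C1 (−0.66). The summed signal of 12 hemocyte genes was 10400 to 14236 over the 5 MA high lines and 15345 to 21360.1 over the 5 MA low lines. The summed signal of 4 tracheal genes was 29228 to 44568 over the MA high lines and 49247 to 55885 over the MA low lines, but 1 of the 4 was called, serp, which was lower. Of the others verm averaged 18211 over the high and 23793 over the low lines, while vvl averaged 7832 and 7184 and btl 356 and 298, the opposite direction. Over the MA pairs none of 4 adult muscle precursor genes or the 6 wing disc genes was called, nor were the fat body gene Lsp2 and the neuronal gene elav. The 3′ to 5′ ratio of the actin control probes was 3.56 on array 3 of A2 and 3.55 on array 3 of C1, against at most 2.13 on the other arrays, and array 3 of B1 had the lowest values of its line for many of the genes below. The part of these measures in the results was not tested.

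The 28 genes were all clearly above the filter. Over the 12 line means the range of a gene was between 0.22 and 0.74 on the log2 scale, with a median of 0.40, against a median of 0.61 over all tested probe sets and 0.46 over the 5171 of them within the signal range of the 28 genes. The moderated F test among the 12 lines called 21 of the 28 genes, or 75%, where 64.5% of all tested probe sets were called. Among those of the same signal range the share was 75.5%, so the share of cell cycle genes that varied among lines was near the background. The SD between arrays of a line had a median of 0.12 over the 28 genes and 0.12 over probe sets of that signal range.

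Among the licensing genes, Mcm3, a subunit of the helicase, had the widest spread of line means at 0.73. Its signal over the 36 arrays ran from 4503 through a median of 6351 to 8686, with line means of 8017 in the CA high line and 7246 in the CA low line, against 4839.6 in H and 5107 in L. The F statistic was 8 (adjusted p = 1.6e-05). The helicase genes Mcm2 (9108 to 14644), dpa, the fly Mcm4 (5184 to 8316), Mcm5 (6879.5 to 11580.2) and Mcm6 (15408 to 21926) were also called among lines. Of the ORC genes, Orc4 (1985 to 3502, F = 6.35), Orc2 (1670.0 to 2671) and Orc1 (1438 to 3072) were called, and Orc5 (2833 to 4273, adjusted p = 0.783) was not. The Cdt1 gene dup was highest in the CA high line at 6453 and lowest in H at 4383 (F = 5.72, adjusted p = 0.000245).

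The genes of DNA synthesis all passed the F test. PCNA, the sliding clamp of the replicative polymerases, ran from 24387 through 32509 to 40194 over the arrays, with its highest line mean of 36749 in C2 and its lowest of 25977 in H (F = 7.04, adjusted p = 4.72e-05). RnrL, the large subunit of ribonucleotide reductase, was highest in the CA high line at 17013 and lowest in A2 at 12974 (F = 7.03, adjusted p = 4.78e-05). PolA1, the catalytic subunit of DNA polymerase alpha, lay between 3490.1 and 4803. By contrast, 4 of the 7 G1-S control genes were not called among lines, namely CycD (adjusted p = 0.0635), CycE (0.0608), E2f2 (0.0672) and Rbf (0.592). The kinases Cdk4 and Cdk2 and the E2F partner Dp were called, with adjusted p values of 0.028, 0.0498 and 0.0155.

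Of the mitotic genes, aurB, the Aurora kinase of the chromosomal passenger complex, had the largest F of the 28 genes at 10.1 (adjusted p = 1.93e-06). Its line mean was 6194 in A1 and 6099 in D1, 3985 in H, 4081 in the CA high line and 3711 in the CA low line, and no array of A1 or D1 overlapped an array of those 3 lines. The APC activator fzy came next, with F = 8.59 (adjusted p = 8.5e-06). It was highest in the CA low line at 11304 and the CA high line at 10392, and lowest in B2 at 7659. CycB, the mitotic cyclin B, varied least of all the called genes, over a log2 range of 0.22 (F = 4.21, adjusted p = 0.00214), and CycB3, pim (securin) and fzr also passed. The checkpoint gene mad2 (adjusted p = 0.166) and thr, part of the fly separase (0.362), did not. The CA high line lay above the mean of the 12 lines for 27 of the 28 genes and the CA low line for 23, against 2 of 28 for A2, 7 for L, 10 for H and 20 each for A1 and D1. H, L and both CA lines carry one run of sample numbers in the titles and the reselected lines another, so for these differences among lines the run and the line cannot be told apart. Both lines of each pair are in the same run.

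**Figure D1:**
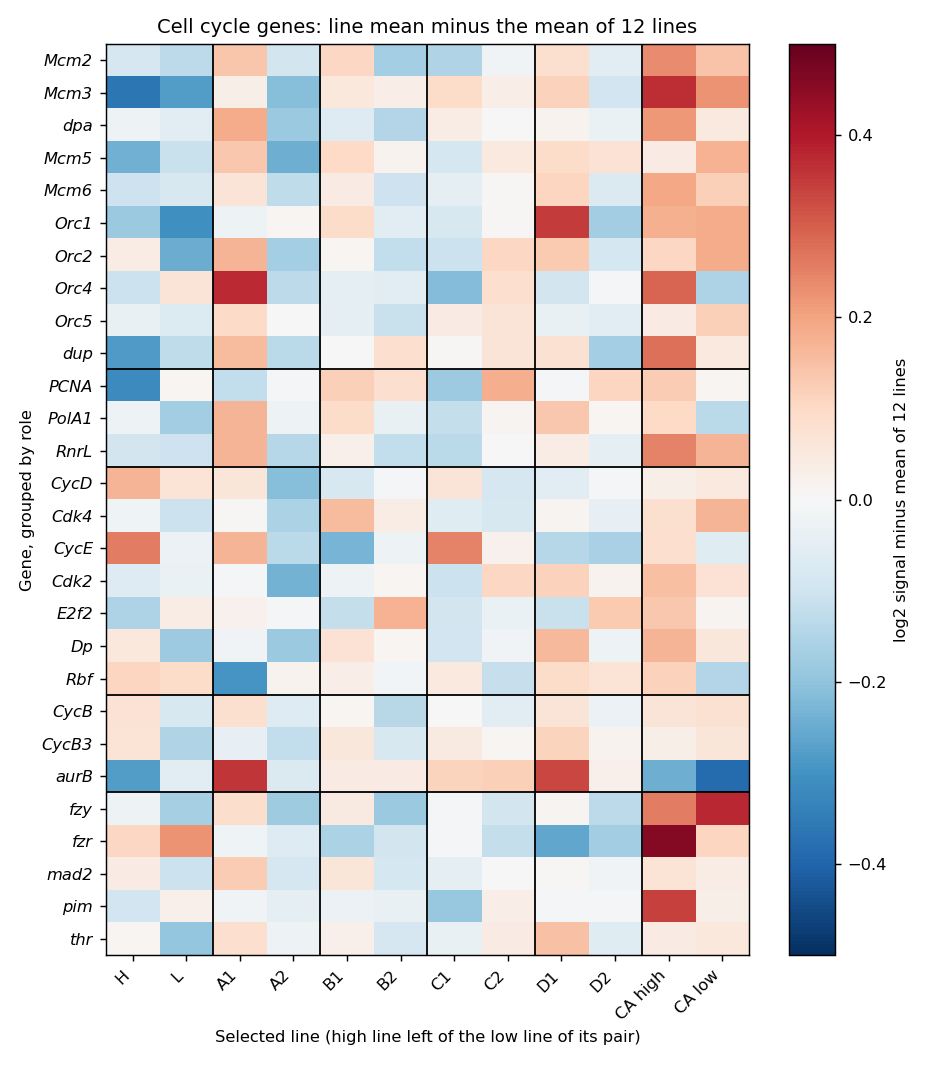
Mean log2 signal of each of the 28 genes (down the page, grouped by role) in each of the 12 lines, minus the gene's mean over the 12 lines. The CA high column is above the mean for 27 genes and the A2 column for 2, aurB is highest in A1 and D1, and Mcm3 is lowest in H.

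High and low lines differed at few of these genes in most pairs, and in pair A alone did the count of called genes pass the share of all tested probe sets by more than 1.5 times. A1 had 10 of the 28 genes called against A2, all 10 higher in A1. Of all tested probe sets 15.7% were called in this pair and 7.76% were called higher. In the H and L pair 3 genes were called, 2 higher in H and 1 lower, where 22.4% of all tested probe sets were called. In pair B 0 were called (background 12.7%), in pair C 2, both lower in C1 (14.2%), in pair D 2, both higher in D1 (10.0%), and in CA 3, all higher in the CA high line (17.0%). The count of 0 in pair B was 7 without array 3 of B1, 3 without array 3 of C1 and 1 without any of 4 other arrays, namely arrays 1 and 3 of L and arrays 2 and 3 of the CA low line. At least 1 pair called 15 of the 28 genes, against 46.4% of all tested probe sets. Orc4 was called in 3 pairs, PCNA, CycB and aurB in 2 each, and 11 genes in 1 pair each.

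Outside pair A the median difference without sign was no larger than that of other probe sets, while the signed median was above theirs in pairs B, D and CA. The median size without sign was 0.13 in the H and L pair, 0.22 in A, 0.10 in B, 0.09 in C, 0.10 in D and 0.11 in CA, against 0.19, 0.16, 0.14, 0.16, 0.14 and 0.16 over all tested probe sets in the same order and 0.153, 0.127, 0.111, 0.128, 0.107 and 0.125 over those of the same signal range. The signed median was 0.20 in pair A, where 25 of 28 genes had a higher mean in A1, with 0.02 over all tested probe sets. It was −0.06 in pair C, where 18 of 28 had a lower mean in C1, with −0.02 over all. In the other pairs it was 0.03 (H and L), 0.07 (B), 0.09 (D) and 0.09 (CA), with 0.04, −0.00, 0.00 and −0.03 over all. The high line had the higher mean for 17 of 28 genes in the H and L pair, 22 in B, 22 in D and 18 in CA.

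**Figure D2:**
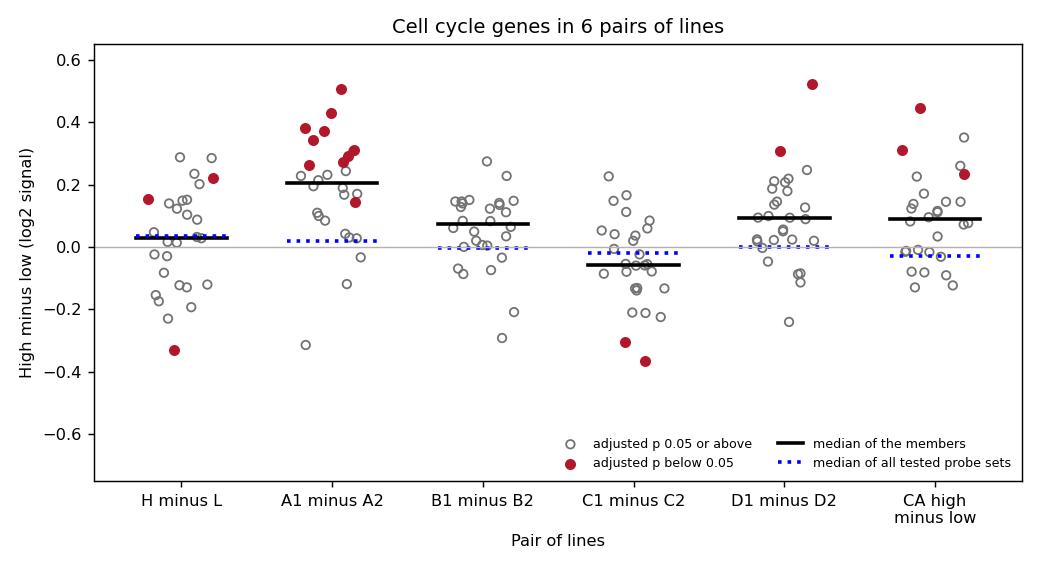
High minus low difference on the log2 scale for each of the 28 genes in each of the 6 pairs of lines. Filled points passed an adjusted p of 0.05, solid bars are the medians of the 28 genes and dotted bars those of all 9385 tested probe sets. In pair A the median of the genes is 0.20 and 10 points are filled, all above 0. In pair B none is filled.

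In pair A, 5 of the 10 licensing and helicase genes were higher in A1, with a median difference of 0.27 over the 10. Orc4, an ORC subunit, had signals of 3142, 3352 and 3456 on the 3 arrays of A1 and 2239, 2485 and 2285 on those of A2. The lowest array of A1 was above the highest of A2. The means were 3317 ± 159.9 and 2337 ± 131 (SD, n = 3 each), a difference of 0.51 on the log2 scale (SE 0.10, adjusted p = 0.000453), or 1.42-fold. Orc2, another subunit, had 2464, 2537 and 2316 in A1 and 1777, 2165 and 1846 in A2, without overlap, and was higher in A1 by 0.34 on the log2 scale (SE 0.11, adjusted p = 0.0315).

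Of the helicase subunits, dpa had 7460.3, 7782 and 7496 in A1 and 5184, 6018 and 6448 in A2, a difference of 0.37 on the log2 scale (SE 0.10, adjusted p = 0.00781). Mcm5 had 10088, 10099 and 9769 in A1 and 7255, 9048 and 6879.5 in A2, a difference of 0.38 on the log2 scale (SE 0.10, adjusted p = 0.0101). For both genes the arrays of A1 lay close together and above the more scattered ones of A2. The other subunits, Mcm2, Mcm3 and Mcm6, had differences of 0.23, 0.24 and 0.19 that did not pass, with adjusted p values of 0.152, 0.12 and 0.0849. The helicase loader dup had 6253, 6081 and 5478 in A1 and 5003, 4512 and 5025 in A2, higher by 0.29 on the log2 scale (SE 0.09, adjusted p = 0.0262).

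RnrL, which makes the deoxyribonucleotides for replication, was the gene of S phase synthesis called in pair A. It had 15864, 16112 and 16243 in A1 and 12554, 13539 and 12831 in A2, a difference of 0.31 on the log2 scale (SE 0.07, adjusted p = 0.00234), with arrays that did not overlap. PCNA went the other way without passing, with 28839.7, 30945 and 29422 in A1 and 30954, 34532 and 31437 in A2 (difference -0.12, adjusted p = 0.354). CycD, the D-type cyclin that partners Cdk4, was the 1 called gene of 7 in G1-S control. It had 4396, 4722 and 4695 in A1 and 4027, 3614 and 3792 in A2, a difference of 0.27 on the log2 scale (SE 0.09, adjusted p = 0.0445).

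The mitotic genes called in pair A were aurB, CycB and fzy. aurB had 6248, 6262 and 6073 in A1 and 3991, 5217 and 4681 in A2, a difference of 0.43 on the log2 scale (SE 0.10, adjusted p = 0.00291). CycB had 22003, 21939 and 22856 in A1 and 19508, 20068 and 20873 in A2, a difference of 0.14 on the log2 scale (SE 0.05, adjusted p = 0.0481), the smallest of the 10. fzy had 9807, 8726 and 9226 in A1 and 7541, 8249 and 7339.7 in A2, a difference of 0.26 on the log2 scale (SE 0.08, adjusted p = 0.0303). All 3 arrays of A1 were above all 3 of A2 for each of these genes, as they were for the other 7 called ones. The genes were picked by a test on these same arrays, so the lack of overlap is no separate evidence.

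The count in pair A depended on single arrays and on the scaling. With each array centred on its median Orc4 alone of the 28 was called, by 0.48 (adjusted p = 0.0101). On that scale 729 of all tested probe sets were called, against 1476 on the deposited scale. The median of the 28 genes was then 0.18 and that of all tested probe sets −0.0052. Of the other 9 genes aurB then had 0.40 (adjusted p = 0.0664) and RnrL 0.29 (adjusted p = 0.166). On the deposited scale the count was 5 without array 1 of A2, and 6 without array 3 of A2, array 1 of A1 or array 2 of A1. Orc4, RnrL and aurB were called whichever array of the 36 was left out, with differences of 0.48 to 0.55, 0.29 to 0.34 and 0.33 to 0.52. dpa lost its call without array 1 of A2 alone (0.28), and Mcm5 without array 1 or array 3 of A2 (0.34 and 0.30). The CycB call was ended by leaving out any of 27 of the 36 arrays, that of CycD by any of 9, those of Orc2 and fzy by any of 4 and that of dup by any of 3. The hemocyte sum was 14236 in A1 and 17876 in A2. The tracheal sum was 29228 in A1 and 51580.1 in A2, with serp and verm called lower in A1 and the other 2 tracheal genes not called.

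**Figure D3:**
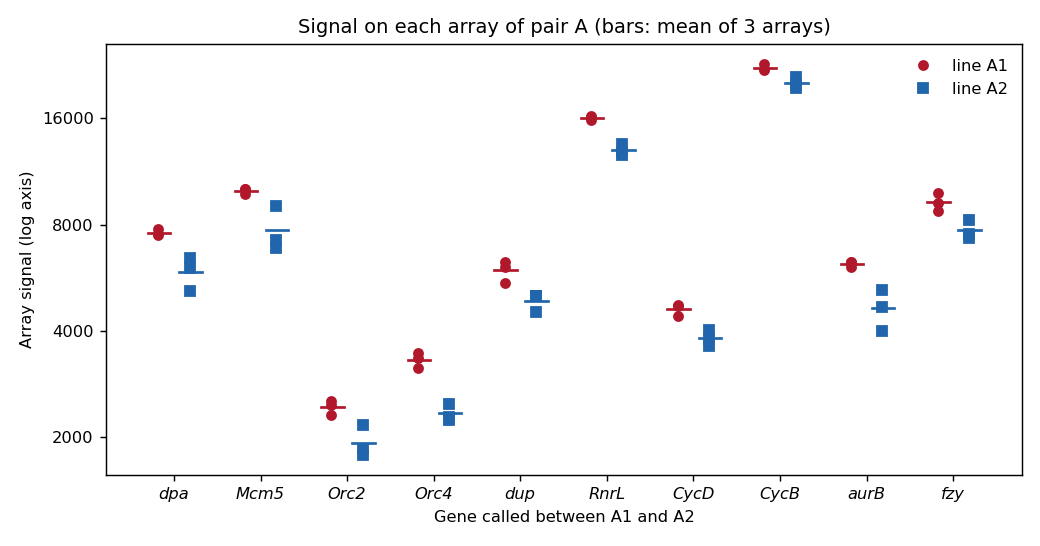
Signal on each of the 3 arrays of A1 (circles) and A2 (squares), on a log axis, for the 10 genes called between these lines, with bars at the line means. For each gene the A1 arrays lie above the A2 arrays, and Orc4 has the largest difference, 0.51 on the log2 scale.

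Whether a pair differed from the other MA pairs was tested by contrasts added after the counts had been seen, in the model of all 36 arrays, each pair minus the mean of the other 4. In pair A the difference was larger than in the other pairs for 4 genes, where 5.60% of all tested probe sets were called. These were Orc4 by 0.64 (SE 0.11, adjusted p = 0.000289), Mcm5 by 0.42 (SE 0.12, adjusted p = 0.0241), aurB by 0.41 (SE 0.11, adjusted p = 0.025) and RnrL by 0.28 (SE 0.08, adjusted p = 0.0318). In pair C the difference was smaller than in the other pairs for 4 genes (background 8.17%), Orc2 by -0.46 (SE 0.12, adjusted p = 0.0171), Orc4 by -0.37 (SE 0.11, adjusted p = 0.0373), PolA1 by -0.28 (SE 0.09, adjusted p = 0.0373) and RnrL by -0.27 (SE 0.08, adjusted p = 0.0294). Orc4 and RnrL thus deviated in opposite directions in pairs A and C, which enter each other's contrasts. In the H and L pair aurB was smaller by -0.41 (SE 0.11, adjusted p = 0.0286), the 1 gene called, with a background of 4.67%. Pair B had 0 (4.95%) and pair D 0 (1.79%).

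PCNA was lower in the high line of the H and L pair and of pair C. It had 24387, 27583 and 25959 on the arrays of H and 31676, 32749.8 and 33341 on those of L, which did not overlap. The means were 25977 ± 1598 and 32589 ± 844 (SD, n = 3 each), a difference of -0.33 on the log2 scale (SE 0.08, adjusted p = 0.00213). In pair C it had 27179, 28786 and 29695 in C1 and 36145, 36913 and 37189 in C2, again without overlap, a difference of -0.36 on the log2 scale (SE 0.08, adjusted p = 0.00124). Both calls held whichever single array was left out, with differences of −0.37 to −0.28 in the H and L pair and −0.39 to −0.33 in pair C. With the arrays centred on their medians the difference was −0.57 in the H and L pair (adjusted p = 0.000881) and −0.34 in pair C, where it was no longer called (adjusted p = 0.0936). In pair D PCNA had 33086, 33862 and 29814 in D1 and 35667, 37379 and 31723 in D2, which overlap (-0.11, adjusted p = 0.454). In pair B it had 36382, 40194 and 29722 in B1 and 31059, 36351 and 35853 in B2, with the widest spread in B1 (0.03, adjusted p = 0.862). Over the 5 MA pairs the difference was -0.18 (SD 0.17 over pairs, adjusted p = 0.133), lower in 4 of 5, and did not pass.

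In pair C, Orc4 was also called. It had 2368, 2194 and 2047 in C1 and 2377, 2947 and 2850.2 in C2, a difference of -0.30 on the log2 scale (SE 0.10, adjusted p = 0.0389), and the highest array of C1 was just below the lowest of C2. This call was lost without array 2 or 3 of C1, without array 2 or 3 of C2, and with the arrays centred on their medians (−0.28, adjusted p = 0.204). So Orc4 was lower in C1 and higher in A1 than in the low line of the same pair, and over the 5 MA pairs it averaged -0.01 (SD 0.31). Markers of other cells also differed in pair C, with 8 of 12 hemocyte genes called lower, where 14.2% of all tested probe sets were called. The hemocyte sum was 10400 in C1 and 19676 in C2. The fat body gene Lsp2 averaged 3558 in C1, with arrays from 920.3 to 4924, and 511 in C2, with arrays from 439 to 627, a difference of 2.47 on the log2 scale. The neuronal gene elav averaged 1056 in C1 and 2532 in C2, a difference of −1.12 on the log2 scale.

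In the H and L pair the called mitotic genes were CycB and CycB3, both mitotic cyclins. CycB had 21710.3, 21714 and 23051 in H and 21689, 19684 and 18527 in L, which nearly met, and was higher by 0.15 on the log2 scale (SE 0.05, adjusted p = 0.0267). CycB3 had 7657, 7178 and 7682 in H and 5869.6, 6833 and 6666 in L, without overlap, and was higher by 0.22 on the log2 scale (SE 0.07, adjusted p = 0.0227). These 2 values depended on the scale, since after centring the arrays on their medians they were −0.084 for CycB and −0.017 for CycB3, and centring moved the median of all tested probe sets in this pair to −0.20, against 0.04. The count in this pair was 1 without array 3 of H and 5 without array 3 of B1, where Orc2 (0.29, adjusted p = 0.0369) and aurB (−0.23, adjusted p = 0.0444) were added.

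In pair D the called genes were Orc1 and aurB. Orc1, an ORC subunit whose gene is a target of E2F, had 2019.8, 3072 and 2653 in D1 and 1579, 1758 and 2002 in D2. Array 1 of D1 lay only just above the highest of D2, and the difference of 0.52 on the log2 scale (SE 0.16, adjusted p = 0.0269) was 0.39 and not called without array 2 of D1. aurB had 6534, 6037 and 5725 in D1 and 5245, 4910.1 and 4631 in D2, without overlap, a difference of 0.31 on the log2 scale (SE 0.10, adjusted p = 0.0481). Its adjusted p was so near the threshold that leaving out any of 23 of the 36 arrays ended the call. The count was 0 without array 2 of D1 or array 2 of D2, and 0 with the arrays centred on their medians, where Orc1 had 0.52 (adjusted p = 0.0513) and aurB 0.31 (adjusted p = 0.263).

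**Figure D4:**
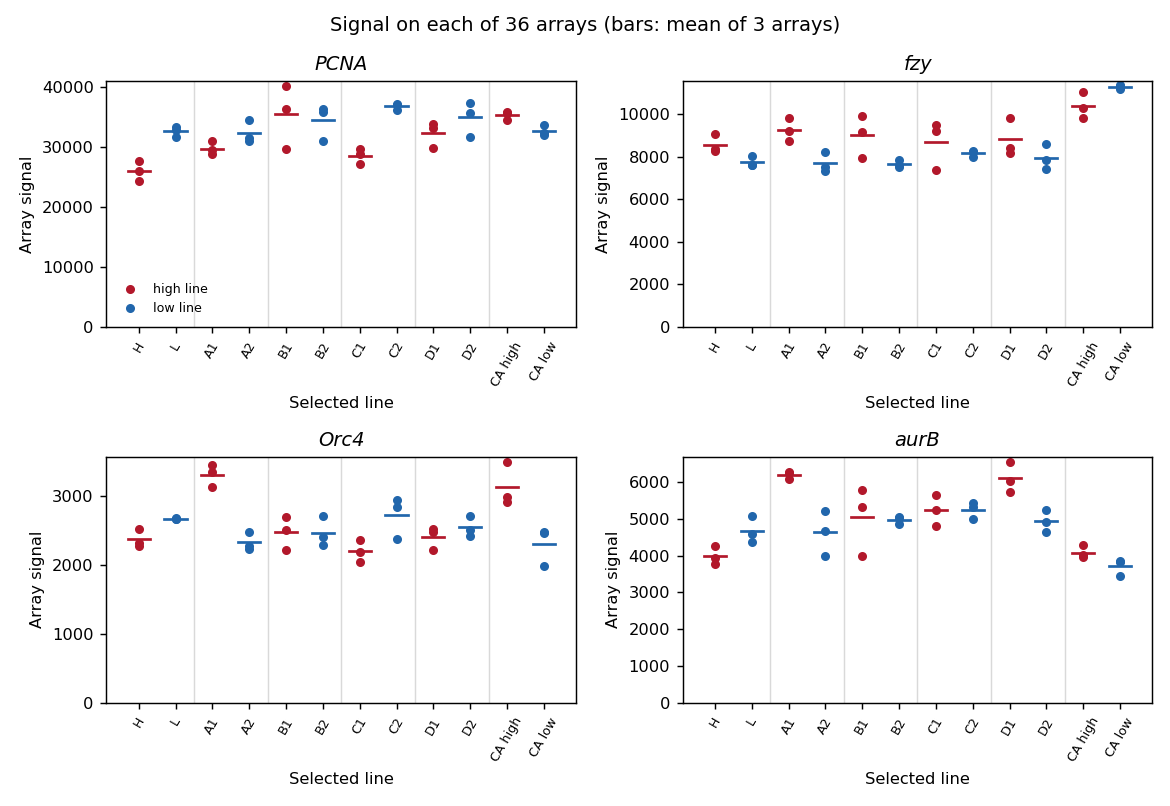
Signal on each of the 36 arrays for PCNA, fzy, Orc4 and aurB, with bars at the mean of the 3 arrays of a line and each high line left of its low line. PCNA is lower in H and in C1 than in L and in C2. fzy is higher in the high line of all 5 MA pairs and not in CA, Orc4 is highest in A1 and the CA high line, and aurB is highest in A1 and D1.

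In pair B the count of called genes moved most when array 3 of B1 was left out. For Mcm2 the arrays of B1 gave 13749.5, 14644 and 9667, and those of B2 gave 9108, 11453 and 10554. The third array of B1 lay far below the other two of its line and inside the range of B2. Mcm5 had 10354, 11580.2 and 7743 in B1 and 8102, 10061 and 9569 in B2, with the third array of B1 below all arrays of B2. RnrL had 15125, 16552 and 12290.3 in B1 and 12443, 13765 and 13208 in B2, where the third array of B1 was the lowest of all 6. With all arrays the differences were 0.27 for Mcm2 (adjusted p = 0.0871), 0.08 for Mcm5 (0.715) and 0.15 for RnrL (0.198). Without array 3 of B1, 7 of the 28 genes were called, where 14.9% of all tested probe sets were. Mcm2 was then higher in B1 by 0.46 (adjusted p = 0.000524), fzy by 0.32 (0.0125), RnrL by 0.27 (0.00288), Mcm6 by 0.24 (0.0229), CycB3 by 0.22 (0.0444) and CycB by 0.18 (0.0251). The repressor E2f2 was then lower by −0.38 (0.0185). The 3′ to 5′ ratio of actin on that array was 1.43, within the range of the other arrays. Its tracheal sum, most of which is signal of verm and serp, was 54348, against 38544 and 40811 on the other arrays of B1. Its hemocyte sum was 10759.9, within the range of its line.

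In CA, 3 genes were higher in the high line. Orc4 had 2987, 2924 and 3502 in the CA high line and 1985, 2476 and 2465 in the CA low line, without overlap. The means were 3138 ± 317 and 2309 ± 281 (SD, n = 3 each), a difference of 0.45 on the log2 scale (SE 0.10, adjusted p = 0.00149). PolA1 had 4718, 4168 and 4503 in the CA high line and 4014, 3667 and 3696 in the CA low line, a difference of 0.23 on the log2 scale (SE 0.08, adjusted p = 0.033). pim, the securin that holds separase inactive until anaphase, had 11042, 9730.3 and 11017 in the CA high line and 8661, 7463 and 9601 in the CA low line, a difference of 0.31 on the log2 scale (SE 0.11, adjusted p = 0.0403). For all 3 genes the lowest array of the high line was above the highest of the low line, which is no separate evidence, since the call rests on the same arrays. Orc4 was called whichever array was left out, while the other 2 were each lost without any 1 of 4 CA arrays, and PolA1 also after median centring (0.31, adjusted p = 0.132). The count was 1 without array 3 of the CA high line or array 2 of the CA low line.

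The CA difference departed from the mean of the 5 MA differences at 4 genes, where 22.8% of all tested probe sets did. Orc4 departed by 0.46 (SE 0.11, adjusted p = 0.00233), with 0.45 in CA and -0.01 over the MA pairs. PCNA departed by 0.29 (SE 0.08, adjusted p = 0.0111), with 0.12 in CA and -0.18 in MA, although neither value passed its own test. pim departed by 0.37 (SE 0.12, adjusted p = 0.0181), with 0.31 in CA and -0.06 in MA, a call lost without array 1 or 3 of the CA high line or array 2 of the CA low line (0.34, 0.34 and 0.28). fzy went the other way by -0.29 (SE 0.09, adjusted p = 0.0189), with -0.12 in CA (adjusted p = 0.387) and 0.17 in MA. The fzy contrast was −0.26 and not called without array 2 of the CA high line (adjusted p = 0.0789), and −0.17 and not called after median centring (adjusted p = 0.46). The hemocyte sum was 16615 in the CA high line and 22804 in the CA low line, the same direction as in the MA pairs.

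With the line as the replicate, fzy was the 1 gene of 28 called over the 5 MA pairs, where 9.69% of all tested probe sets were called. Its line means were 8560.0 in H, 9253 in A1, 9004 in B1, 8714 in C1 and 8817 in D1, and 7767 in L, 7710.0 in A2, 7659 in B2, 8169 in C2 and 7959 in D2. The lowest high line was above the highest low line. The means over lines were 8869.6 ± 268 and 7853 ± 210.0 (SD, n = 5 lines each), a difference of 0.17 (SD 0.07 over pairs, adjusted p = 0.0496), higher in 5 of 5 pairs. These pairs share the founders H and L and are not independent, and the adjusted p does not allow for that. With the arrays centred on their medians it was 0.12 and not called (adjusted p = 0.388). On the deposited scale 24 of 41 alternatives that left out 1 array or 1 pair ended the call, with differences of 0.15 to 0.19. Among these were the alternatives without the H and L pair, pair A, pair B or pair D.

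fzy had 2 further probe sets whose mean over all arrays was under the filter at a signal of 259.72. They were not among the 9385 tested. The first had line means of 36.9 to 111 in the 5 MA high lines and 243 to 330.4 in the 5 MA low lines, the opposite order to the bright probe set. In CA it averaged 64.1 in the high line and 99.7 in the low line. A limma fit without the filter called it lower over the 5 MA pairs (adjusted p = 0.00203), in pair A (0.0084) and in pair D (0.00237). That fit did not call it in the H and L pair (0.11), pair B (0.101), pair C (0.0566) or CA (0.818). The second averaged 182 ± 59.4 over the MA high lines and 165 ± 63.3 over the MA low lines (SD, n = 5 each). It was not called over the MA pairs in the fit without the filter (adjusted p = 0.845). The 10th percentile of signal lay between 22.4 and 54.1 on the arrays, and since these dim signals were not shown to be above background no fold is read from them. Whether the lines differ in sequence under any probe set of fzy was not tested.

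The other 27 genes did not pass over the MA pairs. CycB had a higher mean in the high line of 5 of 5 MA pairs, with a difference of 0.12 (SD 0.04, adjusted p = 0.094), with line means of 21757 ± 548 and 20055 ± 555 over the high and low lines. CycB3 did so in 5 of 5, with 0.11 (SD 0.07, adjusted p = 0.157). E2f2, the repressing E2F, had a difference of -0.15 (adjusted p = 0.149), lower in 4 of 5 pairs. Of the licensing genes, dpa was above 0 in 5 of 5 pairs (0.11, SD 0.14, adjusted p = 0.297), and Mcm2 (0.11), Mcm3 (0.09), Orc2 (0.15) and Orc5 (0.04) in 4 of 5. Over the 28 genes the median MA difference was 0.09, against 0.00 over all tested probe sets, and 22 of 28 genes were above 0. When the 36 arrays rather than the line means served as replicates, 12 of the 28 genes were called over the MA pairs, where 40.4% of probe sets of the same signal range were, a count whose error leaves out the spread between pairs of lines.

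The genes called in no pair were 13. They were Mcm2, Mcm3, Mcm6 and Orc5 in licensing, Cdk4, CycE, Cdk2, E2f2, Dp and Rbf in G1-S control, and fzr, mad2 and thr in mitotic exit. Their differences over the 6 pairs lay between −0.31 and 0.35. G1-S control therefore had 1 call in 1 pair among its 7 genes, CycD in pair A. CycE, the S phase cyclin, had 0.31 in pair A, 0.28 in the H and L pair, 0.23 in pair C and -0.21 in pair B, and its arrays were scattered, with 6216, 5098 and 4077 in L alone. Rbf, the retinoblastoma protein gene, had its lowest difference in pair A (-0.31, adjusted p = 0.3), with 3941, 4715 and 3982 in A1 and 6421, 3819 and 5791 in A2. The second array of A2 was below all arrays of A1 and the other 2 were above them. fzr, the later APC activator, had its highest in CA (0.35, adjusted p = 0.199), with 4242, 4399.5 and 5250.2 in the CA high line and 2692, 3658 and 4800.3 in the CA low line.

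Arrays of the same line differed from each other in step across the helicase subunits and the genes of S phase synthesis. With each gene's line means removed, the mean Pearson correlation over the 36 arrays was 0.17 across the 378 pairs of the 28 genes. Of these pairs 270 were above 0. Over pairs of all tested probe sets the mean was 0.0021, and none was computed for those of the same signal range. These values describe 36 arrays with 24 residual degrees of freedom, which share the scaling of each array and, within a line, its rearing. The mean was 0.64 among the 5 helicase subunits, from 0.37 to 0.93, and 0.62 among the 3 genes of S phase synthesis. It was 0.32 in mitotic exit, 0.20 in G2-M control, 0.17 among the 4 ORC genes and 0.03 in G1-S control.

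The highest correlation was between Mcm2 and Mcm5 at 0.93 (Spearman's rho 0.92). Mcm2 followed RnrL at 0.88 (rho 0.78), PCNA at 0.84 (0.71) and Mcm6 at 0.81 (0.77). PCNA and RnrL had 0.81 (0.63), Mcm5 and PCNA 0.79 (0.68), and Mcm5 and RnrL 0.78 (0.63). The kinase gene aurB joined these S phase genes, with 0.78 to RnrL (0.62). CycD ran against them, with −0.64 to aurB (rho −0.62), −0.63 to PCNA (−0.62), −0.58 to Mcm2 (−0.58) and −0.52 to RnrL (−0.45). These are the 8 highest and the 4 lowest of the 378 correlations.

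Leaving out array 3 of B1 moved the 8 highest of them, and that of PCNA with CycD, further than leaving out any other array did. The remaining 3 moved slightly further, away from 0, without an array of H or L, as for RnrL and CycD at −0.65 without array 1 of L, against −0.39 without array 3 of B1. On that array Mcm2 was −0.37 from its line mean, Mcm5 −0.33, aurB −0.32, PCNA −0.24 and RnrL −0.24, while CycD was 0.17. Without it the correlation of Mcm2 and Mcm5 was 0.88, that of Mcm2 and RnrL 0.76, and that of CycD and aurB −0.57. The mean over the 378 pairs was then 0.13 and that among the helicase subunits 0.57. Without array 3 of A2 and array 3 of C1, those with the high 3′ to 5′ ratios, these means were 0.18 and 0.69. After centring the arrays on their medians the mean over the 378 pairs was 0.49, but that over all tested probe sets was 0.21 on that scale.

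**Figure D5:**
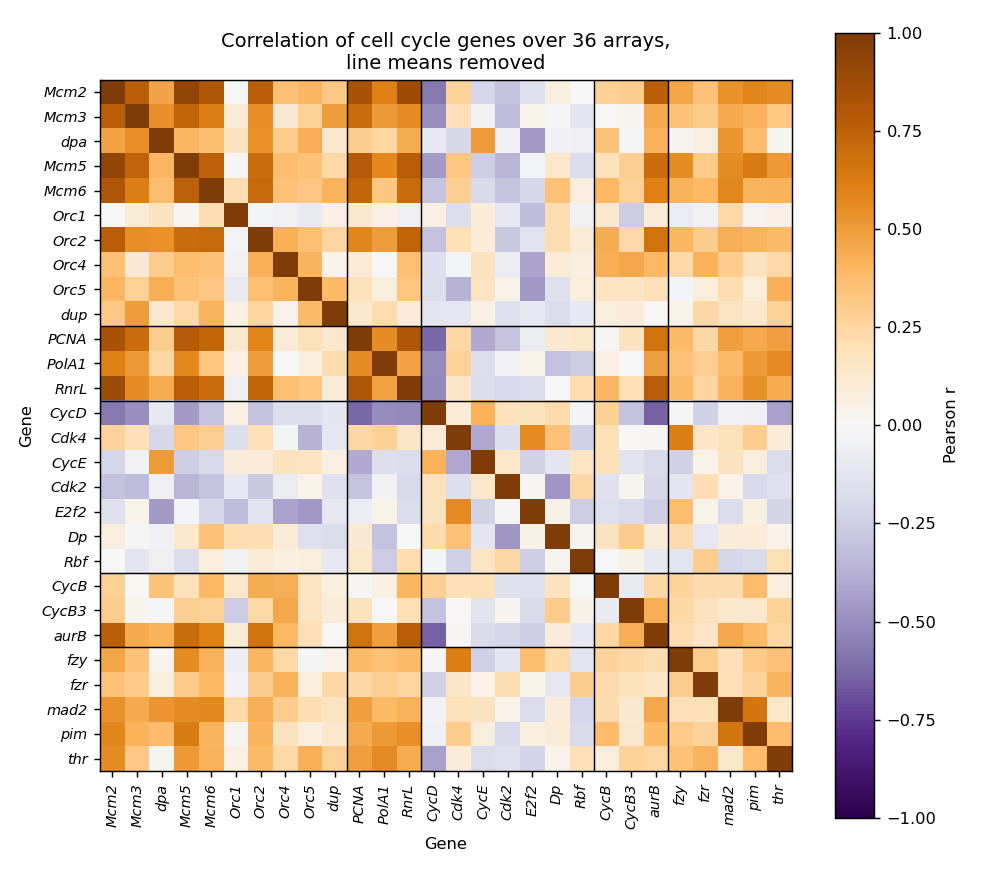
Pearson correlation over 36 arrays between each pair of the 28 genes after line means were removed, grouped by role. The 8 highest values are among Mcm2, Mcm5, Mcm6, PCNA, RnrL and aurB, with Mcm2 and Mcm5 at 0.93. The 4 lowest are those of CycD with RnrL, Mcm2, PCNA and aurB, down to −0.64 with aurB.

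Over the 12 line means the mean correlation of the 28 genes was 0.32 and that among the helicase subunits 0.71. It was 0.0063 over all tested probe sets, again without a value for those of the same signal range. Mcm2 and RnrL had 0.96 over lines. Some pairs that moved together within lines did not do so over lines, as Mcm2 and PCNA had 0.26 and RnrL and aurB −0.10. The lines share founders, so these 12 points are not independent.

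Other genes of the same processes were read from lists of known genes. Of 31 other replication genes tested, 3 were higher and 1 lower over the 5 MA pairs. Psf1, a subunit of the GINS complex of the helicase, was higher by 0.54 (adjusted p = 0.00279), with line means of 1954 in the high and 1347 in the low lines. PolE2, a subunit of DNA polymerase epsilon, was higher by 0.42 (0.0228) and chif, the fly Dbf4, by 0.19 (0.0367). The histone chaperone asf1 was lower by −0.36 (0.0272). By pair, 6 of the 31 were higher and 3 lower in H, 9 and 1 in A1, 6 and 1 in B1, 1 and 4 in C1, and 3 and 2 in D1. As shares called these are 29.0%, 32.3%, 22.6%, 16.1% and 16.1%, where all tested probe sets had 22.4%, 15.7%, 12.7%, 14.2% and 10.0%. The median difference of the 31 was 0.20 in pair A and −0.13 in pair C.

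Of 13 other G1-S genes, 1 was higher over the MA pairs, Skp2, a subunit of a ubiquitin ligase (0.18, adjusted p = 0.0379). Of 15 other G2-M genes, 3 were higher and 0 lower, the cyclin-dependent kinase subunit Cks30A (0.35, 0.0147), the cyclin CycY (0.24, 0.0447) and the checkpoint kinase lok (0.21, 0.0364). Of 11 genes of the anaphase promoting complex, 1 was higher, Cdc23 (0.28, 0.0131), and 0 lower. Of 35 spindle and kinetochore genes, 6 were higher and 1 lower, with the microtubule-associated Map205 at 1.43 and the kinetochore genes Mis12 at 1.34, Nuf2 at 0.42 and Spc105R at 0.35 among the higher. Det, the fly survivin, was lower by −0.44. As a share of the tested genes, these lists had 12.9%, 7.69%, 20.0%, 9.09% and 20.0% called, where all tested probe sets had 9.69%. Of the 35 spindle genes 14 were higher and 3 lower in H. In the H and L pair and then A to D, 48.6%, 28.6%, 22.9%, 8.57% and 14.3% of them were called. All tested probe sets had 22.4%, 15.7%, 12.7%, 14.2% and 10.0%. In the same order the G2-M list had 26.7%, 20.0%, 6.67%, 6.67% and 6.67%. The G1-S list had 15.4%, 15.4%, 0%, 0% and 7.69%. The anaphase promoting complex had 18.2% and then 9.09% in each pair.

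In CA the same lists gave 5 higher and 3 lower for replication, 0 for G1-S, 2 and 1 for G2-M, 0 and 1 for the anaphase promoting complex, and 5 and 3 for the spindle, against 17.0% of all tested probe sets. The nucleotide metabolism genes Ts (0.48), Ctps (0.44), dnk (0.43) and dUTPase (0.39) were higher in the CA high line. In the MA pairs Ctps was called lower in H (−0.38), A1 (−0.26), C1 (−0.43) and D1 (−0.45) and higher in B1 (0.37). There dnk was called higher in A1 (0.23) and lower in C1 (−0.33), Ts higher in A1 (0.61) and dUTPase higher in H (0.32). PolE1, the catalytic subunit of DNA polymerase epsilon, was lower in the CA high line (−0.44). In that line the mitotic kinase gwl was lower by −0.72 and p53 and tws were higher by 0.29 and 0.26. Rca1, which inhibits the anaphase promoting complex, was lower by −0.59. Of the spindle genes Mis12 was higher by 1.26, Bub1 by 0.72, borr, a partner of Aurora B, by 0.63 and Cap-D2 by 0.41, and Zwilch was lower by −0.33.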

How the data were processed

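Total RNA of dissected wing discs was labelled and hybridised to Affymetrix arrays, per the labels' protocols, 36 arrays in 12 lines of 3. The deposited values are array intensity on a linear scale. The submitters' processing notes name MAS5, and its version and settings are not given in the sources used here. Each array had the same trimmed mean of 2500.1, and array medians were 243 to 434. Signals carry no counting depth, so precision is set by how many arrays there are. Of 18952 probe sets 183 were controls and were left out, signals were taken to log2 without a pseudocount, and the 9385 probe sets at or above the median of mean log2 signal (259.72) were tested. Genes came from the platform's annotation, checked through gene identifiers against a gene table of the assembly Release 6 plus ISO1 MT, which matched Mad2 to the file's mad2. No genome or sequence table of these genes was used here, and no promoter was read.

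Pairs were compared with limma 3.58.1 in R 4.3.3, with 1 mean per line, an intensity trend in the variance, 24 residual degrees of freedom and Benjamini-Hochberg adjustment over all tested probe sets. The MA pairs together were tested on 10 line means with the pair as a block, and all tests are two-sided. The code was tested on simulated data. Named are all called genes, the 8 of largest F among lines, the 8 highest and 4 lowest correlations, and up to 5 called genes per further list. The gene list, its groups and the further lists were chosen with earlier results of these data known. Alternatives were median centring, quantile normalization, no filter or a stricter one at the 65th percentile, a pseudocount of 29.4, no variance trend, a replicate block, and leaving out single arrays or pairs.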

Additional observations from a re-analysis of the deposited data

Results flagged for a closer look

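Among the 28 genes, the lines of 1 direction in MA form 56 groups of 5. In 5 of these groups 1 line stood apart from the other 4 by Dixon's criterion. For independent lines, which these are not, chance gives about 1 in 20. H was low among the high lines for Mcm3, at 4839.6. A1 was high for Orc4, at 3317, and low for Rbf, at 4212. L was low among the low lines for PolA1, at 3687, and high for fzr, at 3923.

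The difference between high and low lines in CA departed from the mean of the MA pairs, by a contrast in the limma model, for Orc4 (0.46), PCNA (0.29), pim (0.37) and fzy (−0.29, smaller in CA).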

How the results depend on the processing

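The number of the 28 genes called depended on several settings. With each array centred on its median 7 were called between H and L, 1 between A1 and A2, 0 in pair C, 0 in pair D and 0 over the MA pairs, and the mean correlation was 0.49 against 0.17. Over all tested probe sets the counts were then 2615, 729, 745, 529 and 657, against 2106, 1476, 1329, 943 and 909 on the deposited scale. CycB and CycB3 turned to −0.084 and −0.017 between H and L, where centring left 293 of 2615 called probe sets higher, against 1019 of 2106. Quantile normalization kept all counts within 1.5 times, but of 25 single calls of genes 4 were lost, and 0 turned in sign. Without a filter, which adds probe sets to the adjustment, the counts were 6 in A, 1 in C, 1 in D, 1 in CA and 0 over the MA pairs. With the 65th percentile as filter pair B had 1. Without the variance trend D had 1 and MA 0. Without arrays 3 of A1 and A2, an alternative added after seeing the data, A had 5. With all 36 arrays as replicates the MA count was 12.

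Same-numbered arrays of a pair correlated at −0.06 to 0.19, and arrays of other numbers at −0.11 to 0.03 on average. In pairs A, D and CA each same-numbered correlation was above that average, most of all for array 3 of pair A (0.19 against −0.11). In the H and L pair, B and C some were below it. Whether the numbers pair the samples was not tested. A fit with the replicate number as a block gave 1 in pair D and, over 30 arrays, 6 over the MA pairs. Leaving out 1 array gave 1 to 5 between H and L, 5 to 11 in A, 0 to 7 in B, 1 to 2 in C, 0 to 2 in D, 1 to 3 in CA, 3 to 5 for CA minus MA and 18 to 23 among lines. Leaving out 1 array or 1 pair gave 0 to 1 over MA. The cause of these changes was not tested, except that fewer arrays or more probe sets were in the fit where stated.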
